A study of Mus musculus with 12 samples.

Results

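The genes described are 40 chaperones of the cytosol and mitochondrion, chosen by name: the Hsp70 genes with their partners, the Hsp90 genes with their cochaperones, the mitochondrial pair Hspd1 and Hspe1, the CCT chaperonin, prefoldin and the J-proteins. The files list 55401 genes, and all 40 members were found by their Ensembl IDs. Of the 6596 genes with enough counts to test, 36 were members, and Hspa1a, Hspa1b, Hspa2 and Dnajb1 fell under the count minimum. The study profiled adult mouse hearts of wild type (WT) and of mice lacking the heart and skeletal muscle ribosomal protein Rpl3l (Rpl3l-/-, here KO), in total RNA (Input) and in RNA pulled down with HA-tagged ribosomes (IP). The 12 libraries fall into 4 groups of 3 biological replicates: WT Input, KO Input, WT IP and KO IP. Per the labels, hearts for IP met cycloheximide at excision and their RNA was purified on columns, while Input RNA was taken with TRIzol. Fraction and extraction method can therefore not be told apart. Both fractions were selected for poly(A) RNA and read as nanopore direct cDNA. The labels give no age beyond adult, no strain, and neither the cells that carry the HA tag nor whether an Input and an IP library come from the same heart.

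Chaperones help other proteins to fold and keep them from clumping. Hsp70 proteins bind short greasy stretches of unfolded chains in a cycle driven by ATP. J-proteins hand them clients and start hydrolysis, and nucleotide exchange factors reset them. Hsp90 takes clients onward from Hsp70, while prefoldin delivers newly made actin and tubulin to CCT, a closed double-ring chamber. In mitochondria the same work is done by Hspa9, the Hsp60 and Hsp10 chamber made by Hspd1 and Hspe1, and the Hsp90 relative Trap1. Heart muscle uses these proteins to build and maintain sarcomeres and its dense mitochondria, and heat shock factor raises many of them when proteins misfold, the inducible Hspa1a and Hspa1b above all.

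Library totals ran from 169359 counts in KO Input replicate 3 to 710868 in KO IP replicate 2, and 3 counts stood for 3.75 to 16.3 CPM (reads scaled to a common library size). Rpl3l, the deleted gene, had 89, 125 and 83 counts in WT Input against 18, 7 and 9 in KO Input, and 182, 158 and 156 in WT IP against 1, 2 and 5 in KO IP, so the libraries go with their labels. Of 8 cardiomyocyte markers 7 were detected, with a summed level of 44501 to 59444 CPM in the 12 libraries. Endothelial markers (6 of 6 detected) summed to 2122 to 3329 CPM in Input and 1449 to 1970.2 in IP, and adipocyte markers (4 of 4) to 96.7 to 478 in Input and 13.1 to 50.5 in IP. Only 1 of the 4 adipocyte markers had enough counts to test. The other marker lists overlapped between fractions. Cardiomyocyte markers summed to 45578 to 59444 CPM in Input and 44501 to 51528 in IP, and fibroblast markers to 1090 to 1768 and 1377 to 1857. Smooth muscle and pericyte markers had 549 to 681 and 618 to 837, and macrophage markers 398 to 758 and 482 to 663. The skeletal muscle list (Acta1, Myh1, Myh2, Myh4, Tnnt3 and Ckm) had 3106 to 4845 and 2779 to 3895. Only 3 of its 6 genes had enough counts to test. Its sum was not split by gene and is no measure of skeletal muscle in the samples. Erythroid genes ran from 15449 to 193693 CPM, highest in WT IP replicate 2 and WT Input replicate 3. The part of these cell types in the comparisons below was not tested, and in bulk tissue fewer cells of a type and less RNA per cell cannot be told apart. Levels are CPM after TMM scaling, a correction for differences in library make-up. Log2 fold changes, their standard errors (SE) and p-values adjusted by Benjamini and Hochberg over all 6596 genes are from edgeR's quasi-likelihood test, with 0.05 as the threshold.

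The heat-inducible Hsp70 genes were near the floor in every library. Hspa1a had 1, 2 and 2 counts in WT Input, 0, 5 and 2 in KO Input, 3, 1 and 1 in WT IP and 4, 5 and 2 in KO IP. Hspa1b had 3, 2 and 1 counts in WT Input, 4, 4 and 1 in KO Input, 1, 6 and 1 in WT IP and 3, 3 and 0 in KO IP. A count of 0, as for Hspa1a in KO Input replicate 1, allows up to 3 counts, or 10.9 CPM there. The groups overlap for both genes, with totals of 28 and 29 counts over the 12 libraries. The constitutive Hspa8, by contrast, had 143 counts for each count of the inducible pair in WT Input, 65.3 in KO Input, 213 in WT IP and 151 in KO IP. The coding sequences of Hspa1a and Hspa1b differ at 8 of 1923 aligned bases (99.6% identical), so a read can be hard to place on one of them, and the sources used here do not say how shared reads were counted. The pair's RefSeq promoter windows (300 bases each) match at 296 bases. Shown here are the 250 bases before each start (build GRCm38.p6), with the letters GAAGATTC in capitals, a match to a short heat shock element that starts 104 bases before the start in both:
Hspa1a (chr17:34972157-34972406, minus strand): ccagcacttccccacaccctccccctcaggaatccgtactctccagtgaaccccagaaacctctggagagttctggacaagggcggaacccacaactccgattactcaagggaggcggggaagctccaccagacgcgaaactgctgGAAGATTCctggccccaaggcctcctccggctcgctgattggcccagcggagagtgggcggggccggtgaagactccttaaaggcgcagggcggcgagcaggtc
Hspa1b (chr17:34959239-34959488, minus strand): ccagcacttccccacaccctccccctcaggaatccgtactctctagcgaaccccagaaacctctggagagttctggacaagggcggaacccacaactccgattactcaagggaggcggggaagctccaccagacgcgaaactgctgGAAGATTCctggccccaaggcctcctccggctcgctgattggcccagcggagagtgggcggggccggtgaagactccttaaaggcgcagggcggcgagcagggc

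For the inducible pair the counts allow only wide ratios. KO to WT ratios of the pooled, TMM-scaled counts in Input were 2.22 (exact 95% interval 0.605 to 8.85) for Hspa1a and 2.37 (exact 95% interval 0.754 to 8.10) for Hspa1b, and these intervals cover counting error only. In IP they were 2.24 (exact 95% interval 0.717 to 8.22) and 0.763 (exact 95% interval 0.218 to 2.51). All 4 intervals hold 1, so no difference between the genotypes was detectable at this depth. Between fractions, Hspa1b in KO had an IP to Input ratio of 0.259 (exact 95% interval 0.0759 to 0.815), and in WT 0.806 (exact 95% interval 0.245 to 2.82). Hspa2, an Hsp70 known best from the testis, had 13 counts in WT IP, 16 in KO IP, 5 in WT Input and 1 in KO Input. Dnajb1, the J-protein that works with Hspa1a under heat stress, had 9, 5 and 8 counts in WT Input, 2, 7 and 5 in KO Input, 9, 5 and 2 in WT IP and 1, 6 and 11 in KO IP. Its KO to WT ratio was 1.01 (exact 95% interval 0.476 to 2.06) in Input and 1.14 (exact 95% interval 0.551 to 2.40) in IP. Its IP to Input ratio was 0.440 (exact 95% interval 0.216 to 0.876) in WT and 0.50 (exact 95% interval 0.235 to 1.09) in KO. All intervals in this paragraph cover counting error only and leave out the spread between libraries. Those of Hspa1b in KO and Dnajb1 in WT, which exclude 1, therefore do not show a difference between fractions.

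**Figure D1:**
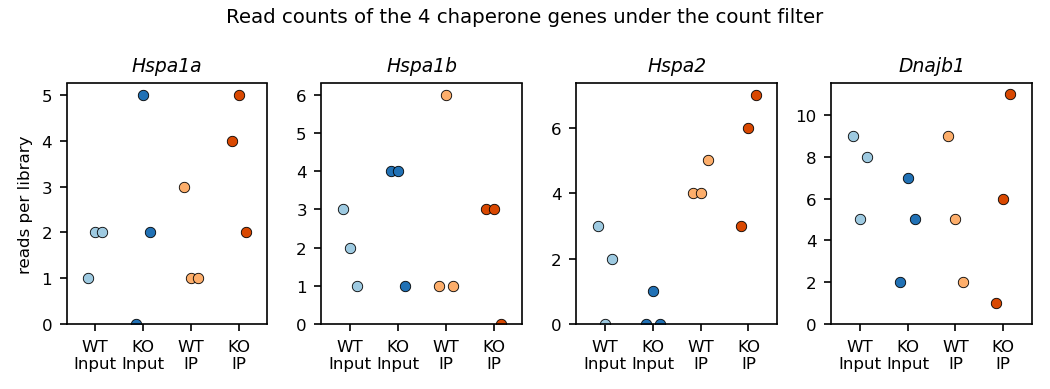
Reads per library (vertical axis, whole counts) of the 4 members under the count minimum, with 3 libraries (points) in each of the 4 groups. No library holds more than 11 reads of any of them, and the genotypes overlap in either fraction for all 4.

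Heat shock elements, the sites that heat shock factor binds, are repeats of the unit GAA and its reverse complement TTC. The windows of 33 members were searched for 3 units (GAANNTTCNNGAA or TTCNNGAANNTTC) and for 2 units (GAANNTTC or TTCNNGAA), where N is any base. The 3-unit forms are reverse complements of each other and each 2-unit form is its own, so both strands are covered, and every 3-unit match holds 2-unit matches. The 3-unit form lay in the windows of Hspd1, Hspe1, Hsph1 and Dnajb6, 4 of 33 members, against 0.662% of the 27025 genes with a window. The 2-unit form lay in 13 of 33 against 17% of genes. A match of letters is a description and not a bound site. Hspd1 and Hspe1, which make the rings and the lid of the mitochondrial chamber, lie head to head on chromosome 1 and share 1 element of 18 bases (chr1:55088059-55088076). It is in capitals in the 250 bases before the RefSeq start of Hspe1 (build GRCm38.p6), starting 89 bases ahead of it, and is shown because the levels of the 2 genes are set side by side below:
Hspe1 (chr1:55087898-55088147, plus strand): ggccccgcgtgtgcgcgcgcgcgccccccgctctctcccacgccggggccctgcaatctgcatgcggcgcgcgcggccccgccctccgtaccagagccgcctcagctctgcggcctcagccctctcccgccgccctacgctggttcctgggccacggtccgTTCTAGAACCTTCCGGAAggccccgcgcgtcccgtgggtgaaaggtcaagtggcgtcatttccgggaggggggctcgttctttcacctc

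Together the 40 genes took 0.646% to 0.915% of a library's counts, and Hspa8, Hsp90ab1 and Hspa9 held 39.7% to 44.4% of these. Per kilobase of the longest annotated transcript, Hspa8, the constitutive cytosolic Hsp70, led in WT Input at 569 CPM per kb. It was followed by Hspe1 at 419, the constitutive Hsp90 gene Hsp90ab1 at 369, the prefoldin subunit Pfdn5 at 261 and Hspa9, the mitochondrial Hsp70, at 218. The stress-responsive Hsp90aa1 stood at 39.9 CPM per kb, and Trap1 at 45.2. Without division by length the order differed, with WT Input means of 1362 CPM for Hspa8, 929 for Hsp90ab1 and 663 for Hspa9. Hspe1 then stood at 325 CPM, Pfdn5 at 277, Hsp90aa1 at 131 and Trap1 at 105. Ranks per kilobase thus depend on the annotated length, and whether counts rise with length in these libraries was not tested. The 8 CCT subunits, which occur once per ring, were close to each other: in WT Input they lay between 44.9 (Cct7) and 83.2 CPM per kb (Cct2), and in the 4 groups the highest was 1.63 to 2.28 times the lowest. Prefoldin was less even, from 56.8 (Pfdn6) to 261 CPM per kb in WT Input, a 4.60-fold range. Among J-proteins in WT Input Dnaja2, a cytosolic partner of Hspa8, was highest at 91.0 CPM per kb, and Dnajb1 lowest at 6.56. In KO IP Dnaja3 led instead, at 71.1 CPM per kb, and in KO Input Dnaja4 was lowest at 6.31.

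The spread within a group was measured by the coefficient of variation. Its median over the members, each over 3 libraries, was 13.8% in WT Input, 22.7% in KO Input, 12.4% in WT IP and 14.3% in KO IP. Over all 4420 genes at least as abundant as the lowest tested member it was 18.1%, 25.3%, 16.1% and 19.2%. KO Input, which holds the shallowest libraries, was the most variable group by this measure. There Cct6a stood at 116, 81.0 and 10.9 CPM, lowest in replicate 3, and Dnaja4, another J-protein, at 10.9, 40.5 and 5.44, low in replicates 1 and 3.

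The first comparison asks whether hearts without Rpl3l carry a different chaperone load in total RNA. None of the 36 tested members passed the threshold in Input, where 0.182% of all tested genes did. With DESeq2 and with limma-voom the count was also 0, and 2 members had an unadjusted p under 0.05 (7.11% of all genes did). The median log2 fold change of the members was -0.02, beside -0.01 over all genes, with 18 members above and 18 below 0. The summed level of the 40 genes was 7409.5 ± 138 CPM (SD, n = 3) in WT Input and 7154 ± 654 in KO Input.

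Among Hsp70 genes and their partners, the main cytosolic form did not separate the genotypes. Hspa8 had 1442, 1292 and 1352 CPM in WT Input and 1263, 1683 and 1305 in KO Input, and Hspa9 had 648, 667 and 674 in WT Input and 659, 593 and 761 in KO Input. The genotypes overlap for both, and the 95% intervals of their log2 fold changes were -0.27 to 0.39 and -0.32 to 0.34. Bag1, an exchange factor that links Hsp70 to the proteasome, had 191, 217 and 257 CPM in WT Input and 146, 184 and 158 in KO Input. All KO libraries lay below all WT libraries, with a log2 fold change of -0.44 (adjusted p 0.668, SE 0.20). Hsph1, an Hsp110 exchange factor, went the other way without overlap, at 40.5, 44.8 and 54.6 CPM in WT and 80.1, 58.9 and 59.8 in KO. Hspa4, its relative, was at 112, 111 and 109 CPM in WT and spread from 36.8 to 135 in KO.

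In the Hsp90 system no member separated the genotypes in Input. Hsp90ab1 had 996, 981 and 809 CPM in WT and 764, 865 and 696 in KO, with 1 KO library inside the WT range. The cochaperones Stip1, which bridges Hsp70 and Hsp90, Ahsa1, which speeds the Hsp90 ATPase, Ptges3 (p23), and Cdc37, which recruits kinases, all overlapped too. Over the 12 libraries Stip1 ranged over 42.4 to 103 CPM, Ptges3 over 43.5 to 109.9, Cdc37 over 84.7 to 169.8 and Trap1 over 91.4 to 143. The family summed to 1567 ± 63.8 CPM in WT Input and 1419.9 ± 171 in KO Input.

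The chaperonins held the smallest p of all members. Hspd1 (ENSMUSG00000025980.14, chromosome 1, 55077835 to 55088243, build GRCm38) had 355, 332 and 385 CPM in WT Input and 273, 272 and 223 in KO Input. The genotypes did not overlap, and the log2 fold change was -0.47 (adjusted p 0.526, SE 0.17). Its partner Hspe1 had 377, 266 and 331 CPM in WT Input and 426, 302 and 190.4 in KO Input, with overlapping genotypes and a log2 fold change of -0.06. Hspd1 had 1.12 ± 0.158 counts per Hspe1 count (SD, n = 3) in WT Input and 0.905 ± 0.265 in KO Input, a difference within the spread. Hspd1 and Hspe1 overlap at their ends, so reads there can belong to either unless strand was used, which the sources used here do not say. Of the 8 CCT subunits, 4 had positive and 4 negative values, and Cct7 alone did not overlap (119, 113 and 96.3 CPM in WT, 127, 122 and 190.4 in KO). Cct6a had 105, 118 and 132 CPM in WT Input, and the KO value of 10.9 CPM in replicate 3 lowers its KO mean.

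Prefoldin summed to 591 ± 36 CPM in WT Input and 543 ± 60.9 in KO Input, and none of its 4 subunits separated the genotypes. J-proteins summed to 769 ± 60.4 and 912 ± 128 CPM. Dnaja1, a farnesylated partner of Hspa8, had the third smallest p, with 126, 63.6 and 41.7 CPM in WT and 69.2, 203 and 114 in KO (log2 fold change 0.71, adjusted p 0.693, SE 0.34). The genotypes overlap, and without KO Input replicate 2 the log2 fold change of Dnaja1 was 0.15, without WT Input replicate 1 it was 1.26, and without WT Input replicate 3 0.44. Dnajb4 had 81.0, 104 and 83.5 CPM in WT and 127, 114 and 169 in KO without overlap. Across the families, 3 members lay wholly higher in KO (Dnajb4, Hsph1, Cct7; all genes 6.17%) and 2 wholly lower (Hspd1, Bag1; all genes also 6.17%), 5 of 36 in all, where 12.3% of all genes did not overlap.

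In IP the question is whether Rpl3l loss alters the levels of chaperone messages pulled down with ribosomes. Again none of the 36 members passed between KO IP and WT IP, with a background of 0.091% of all genes. DESeq2 and limma-voom called 0, and 1 member had an unadjusted p under 0.05 (5.17% of all genes). The median was -0.02, beside 0.00 over all genes, and the 40 genes summed to 8143 ± 253 CPM in WT IP and 8129.6 ± 575 in KO IP. By library totals the median of all genes in this comparison moved to 0.11, and that of the members to 0.09. Bag1 again lay lower in every KO library, with 272, 273 and 231 CPM in WT IP and 223, 204 and 178 in KO IP, and a log2 fold change of -0.36 (adjusted p 0.944, SE 0.17). Ahsa1 had 108, 124 and 126 CPM in WT IP and 91.4, 97.4 and 93.8 in KO IP (log2 fold change -0.33, adjusted p 0.962, SE 0.19). In libraries thinned to the smallest total the log2 fold change of Ahsa1 was -0.07, and by library totals -0.22. Hspa4l, an Hsp110 relative, had 82.1, 85.2 and 72.4 CPM in WT IP and 40.1, 58.7 and 69.9 in KO IP (log2 fold change -0.48, adjusted p 0.962, SE 0.27), and without KO IP replicate 1 its log2 fold change was -0.32. St13 (Hip), which steadies the ADP form of Hsp70, was the 1 member wholly higher in KO (all genes 5.4%), at 136, 116 and 121 CPM in WT and 140.5, 186 and 139.9 in KO. Cct6a, a CCT subunit, had 125, 124 and 131 CPM in WT and 98.1, 102 and 93.8 in KO. Together with Bag1, Ahsa1 and Hspa4l, 4 members lay wholly lower (all genes 5.47%), so 5 of 36 did not overlap, where 10.9% of all genes did not. Hspd1, the member with the smallest p in Input, had 389, 414 and 377 CPM in WT IP and 464, 362 and 409 in KO IP, and the genotypes overlap.

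How large a change the data would still allow can be read from the 95% intervals. In Input they lay within a 2-fold change either way for 30 of 36 members, the others being Dnajb2, Dnajb4, Dnaja1, Cct6a, Hsph1 and Dnaja4, and 41.9% of all tested genes had intervals as narrow. In IP this held for 34 of 36, all but Hspa4l and Dnaja4 (63.1% of all genes). Averaged over the 2 fractions, a contrast added after the data were seen, it held for 35 of 36, all but Dnaja4 (79.2%). In that average 0 of 36 members passed, as with DESeq2 and limma-voom, 4 had an unadjusted p under 0.05, and the background was 0.0303% past the threshold and 6.28% by unadjusted p. The smallest p belonged to Bag1 (log2 fold change -0.40, adjusted p 0.518, SE 0.13), followed by Cct6a (-0.51, adjusted p 0.766, SE 0.21) and Dnaja4 (-0.74, adjusted p 0.766, SE 0.32). Without KO Input replicate 1 Cct6a stood at -0.79 and without KO Input replicate 3 at -0.31, and Dnaja4 without KO Input replicate 2 at -1.34. Bag1 had the same sign in both fractions, and so did 18 of the 36 members, where 48.5% of all genes did. Across the 36 members the 2 genotype effects had r = 0.32, and across all genes -0.03. The 2 comparisons share no library, and genes are not independent replicates.

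**Figure D2:**
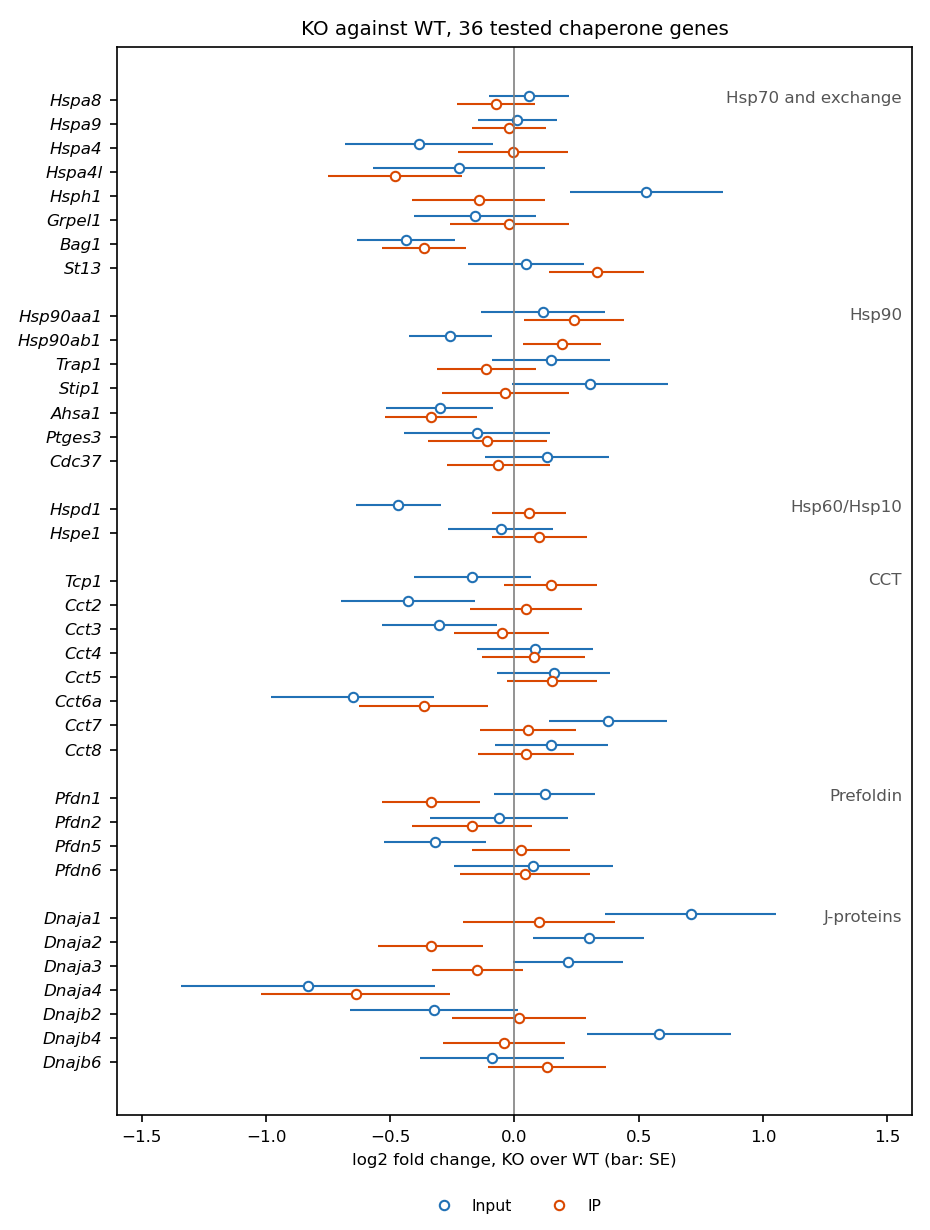
Log2 fold change of KO over WT (horizontal axis, bars are SE) for the 36 tested members, by family, in Input (blue) and IP (orange), with 3 libraries against 3 each. All symbols are open because no member passed the threshold, and Bag1 lies below 0 in both fractions.

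RNA from IP was then set against total RNA, which asks which chaperone messages were higher or lower in IP than in Input. Below, "on ribosomes" means only in IP against Input. The fractions also differed in cycloheximide and extraction, as given above, so ribosome binding cannot be told apart from these. In WT, 4 of the 36 members passed between IP and Input (11.1%), near the background of 14% of all genes. Pfdn5, Grpel1 and Pfdn1 fell in IP (3 of 36, background 8.67%) and Dnaja3 rose (1 of 36, background 5.37%). In KO, 7 passed (19.4%, background 16.4%). Pfdn1, Pfdn5, Grpel1 and Dnaja2 fell (4 of 36, background 9.78%), and Hsp90ab1, Hspd1 and Hspa4 rose (3 of 36, background 6.64%). Libraries of the fractions did not overlap for 9 members in WT (all genes 34.6%) and for 12 in KO (all genes 30.7%). Grpel1, Pfdn1 and Pfdn5 passed in both, 75.0% of the WT calls and 42.9% of the KO calls, and all 8 genes called in either genotype had the same sign in the other. The share of calls common to both genotypes was not computed over all genes. Of all tested genes, called or not, 73.6% had the same sign, so this is not shown to be particular to the members. The median over the members was 0.12 in WT and 0.16 in KO, beside 0.02 and 0.01 over all genes. By library totals instead of TMM the median of all genes moved to 0.11 in WT and 0.15 in KO, and that of the members to 0.22 and 0.30. The KO median of the members was 0.00138 without KO Input replicate 3, 0.0482 without KO IP replicate 2 and 0.0757 without KO Input replicate 1, so its height rests on these libraries. With no count filter it was 0.263, and the WT median under a strict count filter was 0.0553. The summed endothelial and adipocyte markers were lower in IP, as given above, while the other marker lists overlapped between fractions. The part of these cell types in the changes was not tested.

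Among the Hsp70 partners, Grpel1 (ENSMUSG00000029198.3, chromosome 5, 36464998 to 36474080), the exchange factor of mitochondrial Hspa9, was lower on ribosomes. It had 186, 156 and 154 CPM in WT Input and 96.2, 98.3 and 58.9 in WT IP, a log2 fold change of -0.96 (adjusted p 0.00612, SE 0.23). In KO it had 189, 122 and 131 CPM in Input and 62.4, 76.2 and 109.7 in IP (-0.83, adjusted p 0.0262, SE 0.25). Fractions do not overlap in either genotype. The WT call ended without WT IP replicate 3 (log2 fold change -0.76, adjusted p 0.0525), and the KO call without KO Input replicate 1 (log2 fold change -0.58, adjusted p 0.229), KO IP replicate 1 (adjusted p 0.0951) or KO IP replicate 2 (0.0964). Thinning to the smallest total also ended both Grpel1 calls (adjusted p 0.0527 in WT and 0.0741 in KO), and in KO so did library totals (0.0787) and no count filter (0.0603). Its partner Hspa9 lay the other way without overlap, at 648, 667 and 674 CPM in WT Input and 843, 991 and 746 in WT IP. Hspa9 did not pass in either genotype, and 34.6% of all genes did not overlap in WT. There were 4.05 ± 0.489 Hspa9 counts per Grpel1 count (SD, n = 3) in WT Input and 10.5 ± 1.98 in WT IP, and 4.73 ± 1.18 and 10.9 ± 3.61 in KO, with no overlap between fractions in either genotype. Grpel1 was already called as lower in these same libraries, so the ratio is no separate support.

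Hspa4 (ENSMUSG00000020361.13, chromosome 11, 53259814 to 53300457), an Hsp110 exchange factor of cytosolic Hsp70, rose on ribosomes in KO. It had 135, 36.8 and 81.6 CPM in KO Input and 216, 157 and 149 in KO IP, a log2 fold change of 1.02 (adjusted p 0.0112, SE 0.28). The size rests on KO Input replicate 2: without it the log2 fold change was 0.63 and the adjusted p 0.123, and without KO Input replicate 1 it was 1.63. In WT the libraries were tight and apart, 112, 111 and 109 CPM in Input and 184, 167 and 168 in IP, with an adjusted p of 0.0773. Hspa8 did not pass in either genotype, at 1626, 1315 and 1368 CPM in WT IP and 1418, 1490.2 and 1183 in KO IP (log2 fold change 0.08 and -0.06).

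Hsp90ab1 (ENSMUSG00000023944.14, chromosome 17, 45567775 to 45573271) rose on ribosomes in KO, from 764, 865 and 696 CPM in Input to 1670.3, 1348 and 1208 in IP (log2 fold change 0.86, adjusted p 0.000715, SE 0.17). In WT it went from 996, 981 and 809 to 1217, 1372 and 1109 CPM, also without overlap, with an adjusted p of 0.0929. The KO call held in all 23 alternatives, with an adjusted p of at most 0.00476. Set against Hsp90aa1, the inducible isoform, there were 7.52 ± 2.46 Hsp90ab1 counts per Hsp90aa1 count in WT Input, 6.18 ± 2.05 in KO Input, 6.96 ± 0.989 in WT IP and 6.68 ± 0.174 in KO IP (SD, n = 3 each), all overlapping. Their coding sequences are 76.6% identical. Trap1, Stip1, Ahsa1, Ptges3 and Cdc37 did not pass in either genotype. The family sum was 1567 ± 63.8 CPM in WT Input and 1953 ± 107 in WT IP, and 1419.9 ± 171 and 2110.2 ± 244 in KO. Its 7 members had a median log2 fold change of 0.17 in WT and -0.02 in KO, where 3 were positive and 4 negative, so the higher sum is not shared by all members.

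Hspd1 rose on ribosomes in KO, from 273, 272 and 223 CPM in Input to 464, 362 and 409 in IP (log2 fold change 0.67, adjusted p 0.00644, SE 0.17), and the call held in all 23 alternatives. In WT it had 355, 332 and 385 CPM in Input and 389, 414 and 377 in IP, with overlap and a log2 fold change of 0.14. Hspe1, across the shared promoter shown above, had 426, 302 and 190.4 CPM in KO Input and 417, 349.8 and 337 in KO IP, with overlap. Its annotated transcript is short, 774 bases. With the trend of the fold change against transcript length removed, Hspe1 passed in both genotypes, so a difference between Hspd1 and Hspe1 is not shown. No CCT subunit passed in either genotype. Of the 8 subunits 6 had positive values in WT and 7 in KO, Cct4 being negative in both, and the family medians were 0.16 and 0.35. The CCT sum was 1049 ± 37.1 CPM in WT Input and 1161 ± 93.7 in WT IP, 984 ± 113 in KO Input and 1188 ± 101 in KO IP.

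Of the 4 prefoldin subunits Pfdn5 and Pfdn1 were lower on ribosomes. Pfdn5 (ENSMUSG00000001289.12, chromosome 15, 102326116 to 102331873), also known as a binder of Myc, had 234, 297 and 302 CPM in WT Input and 147, 121 and 162 in WT IP, a log2 fold change of -0.95 (adjusted p 0.00140, SE 0.19), and passed in all 23 alternatives. In KO it had 248, 239 and 169 CPM in Input and 183, 139 and 121 in IP (log2 fold change -0.60, adjusted p 0.0489, SE 0.21). There the fractions overlap and the call was lost in 19 of 23 alternatives, among them those without KO Input replicate 1 (adjusted p 0.206), KO Input replicate 2 (0.173), KO IP replicate 2 (0.144) and KO IP replicate 3 (0.218). Pfdn1 (ENSMUSG00000024346.6) had 193, 158 and 190.4 CPM in KO Input and 89.2, 78.7 and 84.2 in KO IP (-1.10, adjusted p 0.000587, SE 0.21), a call kept in all 23 alternatives. In WT it had 172, 174 and 148 CPM in Input and 99.0, 86.8 and 131 in IP (log2 fold change -0.65, adjusted p 0.0249, SE 0.19), and lost its call without WT Input replicate 1 or 2 or WT IP replicate 1 or 2 (adjusted p 0.0971, 0.0995, 0.115 and 0.131). The WT call of Pfdn1 also ended with library totals (adjusted p 0.108), no count filter (0.111), DESeq2's test (0.0731) and thinning (0.216). Pfdn2 and Pfdn6, the other subunits of the same 6-part complex listed here, overlapped between fractions in both genotypes. The prefoldin sum was 591 ± 36 CPM in WT Input against 391 ± 30.3 in WT IP, and 543 ± 60.9 against 368 ± 68.1 in KO, with no overlap in either genotype. Pfdn1 and Pfdn5 have short annotated transcripts, 1109 and 1062 bases. With the trend of the fold change against transcript length removed, Pfdn1 in WT had log2 fold change -0.29, adjusted p 0.358, and Pfdn5 in KO log2 fold change -0.21, adjusted p 0.524. Pfdn5 in WT (log2 fold change -0.57, adjusted p 0.0383) and Pfdn1 in KO (log2 fold change -0.74, adjusted p 0.0200) still passed.

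The J-proteins that passed went in both directions. Dnaja3 (ENSMUSG00000004069.17, chromosome 16, 4639989 to 4707695), the mitochondrial J-protein that serves Hspa9, rose on WT ribosomes, from 136, 153 and 125 CPM in Input to 215, 219 and 195 in IP (log2 fold change 0.60, adjusted p 0.0428, SE 0.20). The libraries do not overlap, but the call ended without any 1 of the 6 WT libraries (adjusted p 0.0633 to 0.146) and without KO IP replicate 3 (0.0514). It also ended with DESeq2's test (0.0682) and with the replicate number as a block (0.0506). In KO it had 211, 118 and 152 CPM in Input and 176, 219.9 and 168 in IP, with overlap. Dnaja2 (ENSMUSG00000031701.6, chromosome 8, 85537633 to 85555344) fell on KO ribosomes, from 299, 438 and 239 to 138, 231 and 194 CPM (-0.79, adjusted p 0.0149, SE 0.22). That call ended without KO Input replicate 2 (log2 fold change -0.51, adjusted p 0.193) or KO IP replicate 1 (adjusted p 0.0768), and with library totals (0.0812). In WT Dnaja2 overlapped, at 303, 292 and 202 CPM in Input and 238, 211 and 273 in IP. Dnaja1, Dnaja4, Dnajb2, Dnajb4 and Dnajb6 did not pass in either genotype. Over the 12 libraries Dnaja1 ranged over 41.7 to 203 CPM, Dnaja4 over 5.44 to 50.5, Dnajb2 over 44.8 to 109, Dnajb4 over 73.6 to 169 and Dnajb6 over 54.6 to 87.0.

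**Figure D3:**
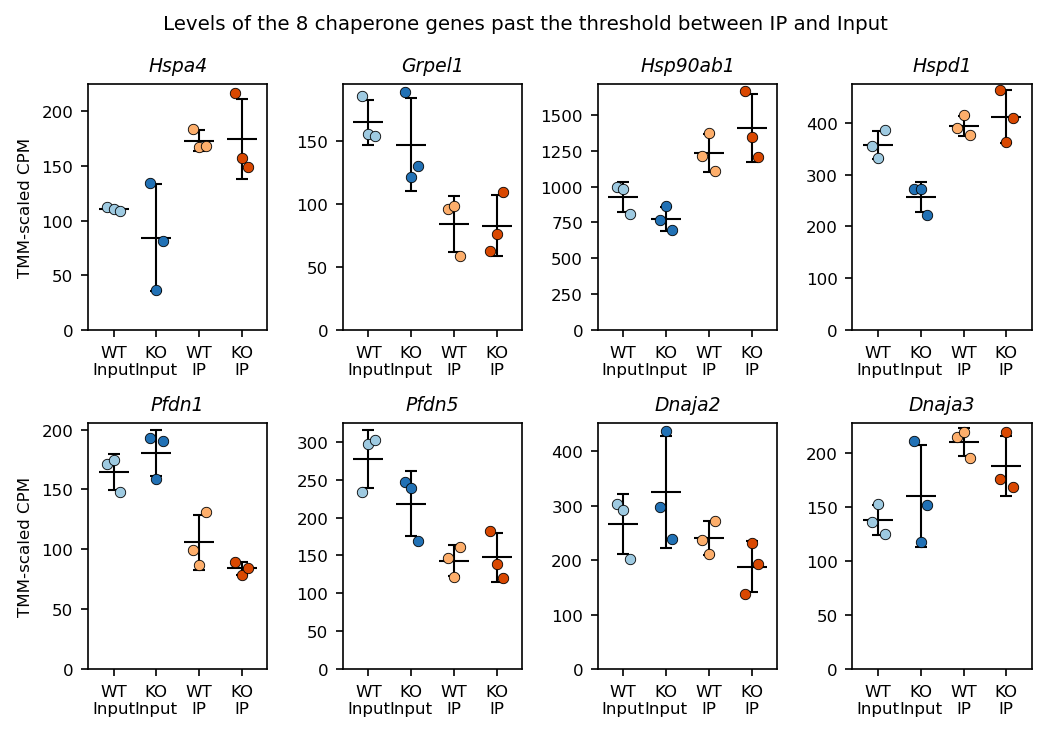
TMM-scaled CPM per library (points) with mean and SD (bars, n = 3) of the 8 members past the threshold between IP and Input in WT or KO. Grpel1, Pfdn1 and Pfdn5 sit lower in IP in both genotypes, and Hspd1 in KO Input, at 223 to 273 CPM, lies below the other 3 groups.

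Averaged over both genotypes, a contrast added after the data were seen that uses all 12 libraries, 12 of the 36 members passed (33.3%), beside a background of 29.2% of all genes. Of these 8 were higher (background 13.4%) and 4 lower (background 15.7%). Higher in IP were Hsp90ab1 (log2 fold change 0.63, adjusted p 0.000172, SE 0.12), Hspa4 (0.83, adjusted p 0.00127, SE 0.18) and Hspd1 (0.40, adjusted p 0.00921, SE 0.11). Also higher, with smaller margins, were Hsp90aa1 (0.52), Hspa9 (0.36), Cct5 (0.42), Dnaja3 (0.41) and Tcp1 (0.41), at adjusted p of 0.0152, 0.0154, 0.0305, 0.0310 and 0.0434. Lower were Pfdn1 (-0.88, adjusted p 4.36e-05, SE 0.14), Grpel1 (-0.89, adjusted p 0.000321, SE 0.17), Pfdn5 (-0.78, adjusted p 0.000189, SE 0.14) and Dnaja2 (-0.47, adjusted p 0.0224, SE 0.15). Without WT IP replicate 2, the library richest in globin reads (17.3% of its counts), 7 of the 12 passed: Hspa9, Dnaja2, Cct5, Dnaja3 and Tcp1 did not. With globin genes left out of all libraries all 12 passed, and without WT Input replicate 1, WT Input replicate 2 or KO Input replicate 2 the count was 8. Over 22 alternatives Pfdn1, Hsp90ab1, Pfdn5, Grpel1, Hspa4 and Hspd1 passed in each. Hsp90aa1 passed in 21, Hspa9 in 20, Dnaja3 in 15, Cct5 and Dnaja2 in 14 and Tcp1 in 7. With DESeq2's test Cct5 (adjusted p 0.0601) and Tcp1 (0.0820) did not pass. Between the genotypes, 28 of 36 members had the same sign of the IP to Input change (all genes 73.6%), with r = 0.72 across members and 0.66 across all genes, from comparisons that share no library.

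**Figure D4:**
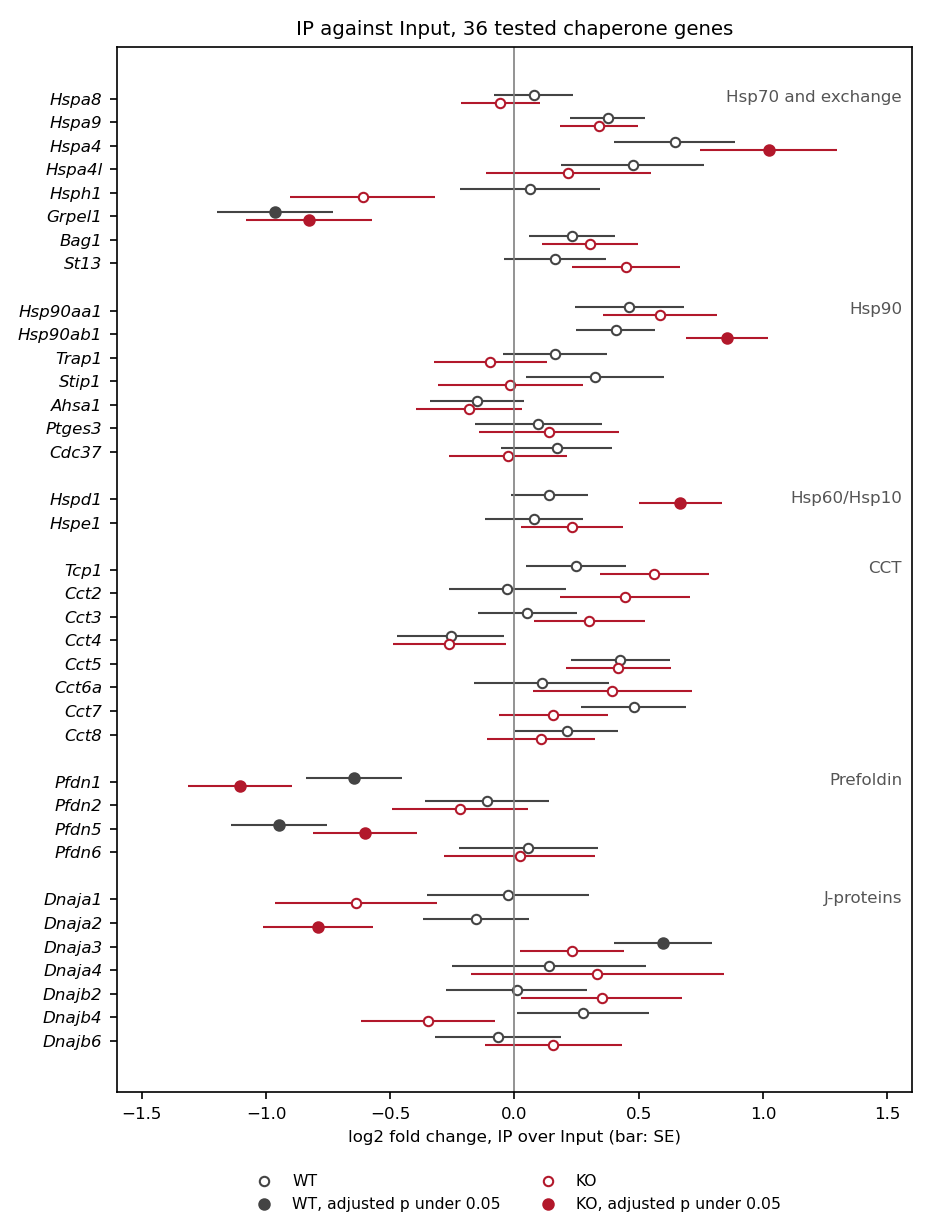
Log2 fold change of IP over Input (horizontal axis, bars are SE) for the 36 tested members in WT (grey) and KO (red), with filled symbols past the threshold. The 4 filled WT symbols and 7 filled KO symbols coincide for Grpel1, Pfdn1 and Pfdn5, all below 0.

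**Figure D5:**
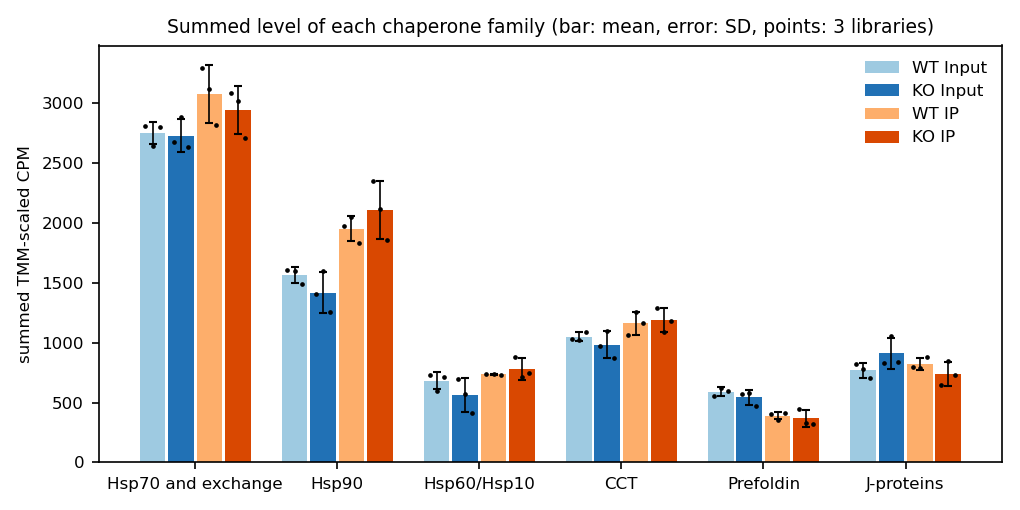
Summed TMM-scaled CPM of each family (bars are means, error bars SD, points the 3 libraries) in the 4 groups. The prefoldin sum is lower in IP than in Input in both genotypes. It goes with Pfdn1 and Pfdn5, while Pfdn2 and Pfdn6 overlapped between fractions. The higher Hsp90 sum in IP goes with Hsp90ab1 and Hsp90aa1, while the family median in KO was -0.02.

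Whether the IP to Input ratio itself differed between genotypes was tested with the interaction. None of the 36 members passed, beside 0.091% of all genes, and DESeq2 and limma-voom called 0 as well. An unadjusted p under 0.05 was seen for 2 members and 7.02% of all genes. These were Hspd1, with a ratio higher in KO (log2 difference 0.53, adjusted p 0.668, SE 0.23), and Dnaja2, with a lower one (-0.64, adjusted p 0.710, SE 0.31). In thinned libraries the value for Hspd1 was 0.86, and without KO Input replicate 2 that for Dnaja2 was -0.35. Hsp90ab1 came next (0.45, adjusted p 0.744, SE 0.23). The calls that appear in only 1 genotype, such as those of Hspd1, Hspa4 and Hsp90ab1 in KO, are therefore not shown to differ from the other genotype.

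Neighbouring genes of the same networks, from lists that hold no member, passed the threshold only between fractions. No gene of these lists passed in KO against WT, in Input or in IP, or in the interaction. The shares called in each list are to be read beside the 14% of all genes called in WT and 16.4% in KO. Of 27 tested (32 listed) heat shock factors and other Hsp70 and Hsp90 cochaperones, 2 rose in WT IP, Fkbp4, an immunophilin of steroid receptor complexes (0.62), and Bag6, which escorts tail-anchored proteins (0.63). In KO IP both rose again (0.79 and 1.57) together with Dnajc5 (1.70), while Dnajb5 (-1.42) and Fkbp8 (-0.84) fell. Among 8 tested (10 listed) prefoldin-like and tubulin-folding genes, Tbca, a chaperone of beta-tubulin, fell in both genotypes (log2 fold change -1.73, adjusted p 6.72e-06, SE 0.23, in WT and -1.50, adjusted p 6.68e-05, SE 0.24, in KO), and the other 7 did not pass. Of 14 other mitochondrial chaperones and proteases, the protease Lonp1 rose in both genotypes (0.93 and 0.71) and Dnajc19 fell in both (-0.79 and -0.75). In WT the disaggregase Clpb rose as well (0.84), and in KO Dnajc15 (-1.01) and Clpp (-0.78) fell. Small heat shock proteins, which hold misfolding proteins near the sarcomere, and their partner Bag3 were mostly higher in IP among those that passed. Of 8 listed 7 were tested. In WT 3 of these rose, Hspb7 (1.32), Bag3 (0.88) and Hspb8 (0.47). In KO Bag3 (0.68), Hspb1 (0.62), Hspb7 (0.56) and Cryab (0.56) rose, and Hspb2 (-0.80) fell. Tbca, Hspb2 and Clpp, which fell, have annotated transcripts of 559, 773 and 983 bases. Hspb1 and Cryab, which rose, have 930 and 1117. The length correction and the other alternatives were read out for members only, so these list calls were not tested that way. In the order given, the lists had 7.41%, 12.5%, 21.4% and 42.9% of their tested genes called in WT, and 18.5%, 12.5%, 28.6% and 71.4% in KO. The medians of the 4 lists were 0.08, -0.20, 0.18 and 0.39 in WT, and 0.28, 0.02, 0.13 and 0.56 in KO.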

How the data were processed

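The authors deposited 1 table of integer read counts per gene for each of 12 nanopore direct cDNA libraries (3 per group). Per the submitters' processing notes, minimap2 2.14, DESeq2 1.34.0 and the build GRCm38 were used, and no source used here gives the counting rule. Gene names, transcript lengths and coordinates came from GENCODE M21 (GRCm38) by Ensembl ID, with 38 of 40 members matching to the version, and promoter windows from RefSeq (GRCm38.p6) by symbol. No promoter window was matched for Cct4, Hspa8, Hspa9, Pfdn1, St13, Hsp90ab1 and Hsp90aa1.

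Counts were fitted in edgeR 4.0.16 (R 4.3.3) with TMM factors, after filterByExpr (minimum count 10, minimum total 15), as 1 mean per group over all 12 libraries. P-values of 5 contrasts, and of 2 averages added after the data were seen, were adjusted over 6596 genes. The SE was taken from the fold change and the F statistic. Alternatives used DESeq2 1.42.0 and limma 3.58.1, other scalings and filters, thinned libraries, no globin genes, a length correction and each library left out in turn. Replicate numbers were checked for pairing: same-numbered libraries correlated between -0.0939 and 0.0217, and 0 of 18 pairs exceeded 0.1. This gave no sign of pairing, but with 3 shallow libraries a group it cannot exclude a shared heart. The fit was first tested on simulated data. Of 100 genes given a log2 fold change of 1 either way, 43 were recovered for KO against WT in Input. For IP against Input in WT 61 were recovered. With a log2 fold change of 2 the numbers were 89 and 99 of 100, and 6 and 8 unchanged genes were called. Each p-value sets a difference against the spread within groups of 3 libraries, estimated over all 12 libraries with information shared across genes. The members and lists were chosen with earlier results of these data known. Named with a fold change are members past the threshold, or the 3 with the smallest p, and list genes past it. Fold changes, intervals or p-values of Hspa8, Hspa9 and Hspe1, and of Hspa4, Hspd1 and Hsp90ab1 in WT, fall outside this rule and were added after their values were seen. Cct7, Hsph1, Dnajb4 and St13 are given by level because their groups did not overlap.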

Additional observations from a re-analysis of the deposited data

How the results depend on the processing

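The count of members past the threshold stayed 0 between genotypes in Input, in IP, in their average and in the interaction under every alternative run. Between IP and Input in WT the 4 members became 2 with DESeq2's test, 7 when only the compared libraries were fitted and 2 in libraries thinned to the smallest total, and leaving out 1 library gave 2 to 5, 2 being without WT Input replicate 1 or 2 or any 1 WT IP library. In KO the 7 members ranged from 4 to 7 when 1 library was left out, 4 being without KO Input replicate 2, and in the average over genotypes the 12 ranged from 7 to 12. With the replicate number as a block the counts were 3 in WT, where Dnaja3 was lost, 6 in KO, where Pfdn5 was lost, and 11 in the average, where Tcp1 was lost. No member named by the rule above changed sign in any alternative that tested it. For the fold changes added outside that rule, the sign was not checked. Without a length correction Bag1 and Hspe1 did not pass between IP and Input, and with it both did in either genotype. Depth limits the 4 untested members, since 3 counts stood for up to 16.3 CPM.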
